A study of Arabidopsis thaliana with 10 samples.

Results

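Among the 33028 rows of the count files, 20 genes were detected at 10 CPM or more in both libraries of 1 pair and at 1 CPM or less in each of the 8 other libraries. CPM is a gene's read count scaled to a library total of 1000000 counts. The pair is the one whose count files carry the header Ran-G22V-D3. Gene names of several large families (for example those starting with CYP, UGT, WRKY or HSP) were left out by the rule, which removed 2 of the 22 rows that met both limits, UMAMIT25 and CYP709B2. The genes were chosen by the CPM values described here, in all 10 libraries, so the height of the pair and the low level elsewhere are a description and support nothing by themselves.

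The libraries came from leaves (the fifth and sixth) of Arabidopsis thaliana plants aged 4 weeks and grown at long days, and there are 5 labelled groups of 2 libraries. The labels name leaves of a line that overexpresses RanG22V, a form of the small GTPase Ran held in its GTP-bound state, without dark treatment (RanG22V D0) and after 3 days in darkness (RanG22V D3). They also name a line that overexpresses RanT27N, a GDP-bound form of Ran, after 3 days in darkness (RanT27N D3) and without dark treatment (RanT27N D0), and wild-type Col leaves without dark treatment (Col D0). All libraries are of leaves, and no source used here says which promoter drives either transgene, how many independent lines were used or whether libraries that share a label stem from separate plants, so p-values may measure technical spread only.

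The name in the header of the count file and the label of the sample disagreed for 8 of the 10 libraries. The pair labelled RanG22V D0 carries the header Ran-G22V-D3, and it is the pair in which the 20 genes were on. By header, the pair labelled RanG22V D3 is Ran-T27N-D3, the pair labelled RanT27N D3 is Ran-T27N-D0 and the pair labelled RanT27N D0 is Ran-G22V-D0. The Col D0 pair has the same name in both. Groups below follow the labels, written as the RanG22V D0 pair and so on. A difference between groups cannot be told apart from one between other lines or days in the dark. The 14 genes of a darkness and carbon starvation list summed to 6553 and 5354 CPM in the RanG22V D0 pair. The sums were 566.9 and 793.8 CPM in the RanG22V D3 pair and 111.7 and 156.6 CPM in the RanT27N D3 pair. They were 134.3 and 147.8 CPM in the RanT27N D0 pair and 92.4 and 184.5 CPM in the Col D0 pair. So the highest sums fell in a pair labelled D0 and headed D3. By header, both pairs named D3 had higher sums than every pair named D0. By label, the sums of the RanT27N D3 pair lay within the range of the Col D0 pair. Which name is right was not tested. RAN-1, the row of 1 of the Ran genes, stood at 852.3 and 1067 CPM in the RanG22V D0 pair, 1160 and 1514 in the RanG22V D3 pair, 1424 and 1183 in the RanT27N D3 pair, 545.2 and 641.2 in the RanT27N D0 pair, and 402.4 and 221.03 in the Col D0 pair. Library totals ran from 14187505 to 24496672 counts. Ribosomal RNA rows held 16.8% and 8.19% of counts in the RanG22V D0 pair, against 17.4% to 24.5% in the other 8 libraries.

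Detached or shaded leaves that are kept from light use up their carbohydrates, break down chlorophyll, lipid and protein, and pass into senescence, a programmed end of the leaf's life in which nutrients are moved out. Abscisic acid is one of the hormones that rises in such leaves, and the cleavage of carotenoids by 9-cis-epoxycarotenoid dioxygenases (NCED enzymes) is the committed step of its synthesis. Separate programmes cut organs from the plant by loosening pectin between cells, and kill cells on schedule during development with nucleases and proteases. Genes known from each of these programmes stood among the 20.

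Of the 20 genes, 18 are protein-coding in the annotation of the TAIR10.1 reference and 2 are transcribed regions without a coding sequence. They lie on all 5 chromosomes (3, 3, 5, 2 and 7 genes on chromosomes 1 to 5), and no 2 of them are neighbours. In the RanG22V D0 pair the 20 genes summed to 803.4 and 669.9 CPM. The same sum was 5.004 and 5.99 CPM in the RanG22V D3 pair, 1.13 and 2.49 in the RanT27N D3 pair, 1.62 and 3.796 in the RanT27N D0 pair, and 2.76 and 1.59 in the Col D0 pair. The lower library of the RanG22V D0 pair stood 19.8 to 354-fold above the highest of the 8 other libraries, with a median of 40.0-fold over the genes. The 1 gene with no read in those 8 libraries enters as a lower bound, taken against 3 counts in a library. The same limits and left-out names, set for each of the other 4 pairs in turn, found 0 genes on in only that pair. Before names were left out, 1 row was on in only the RanT27N D0 pair. For the RanG22V D3, RanT27N D3 and Col D0 pairs the number was 0 then too.

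**Figure D1:**
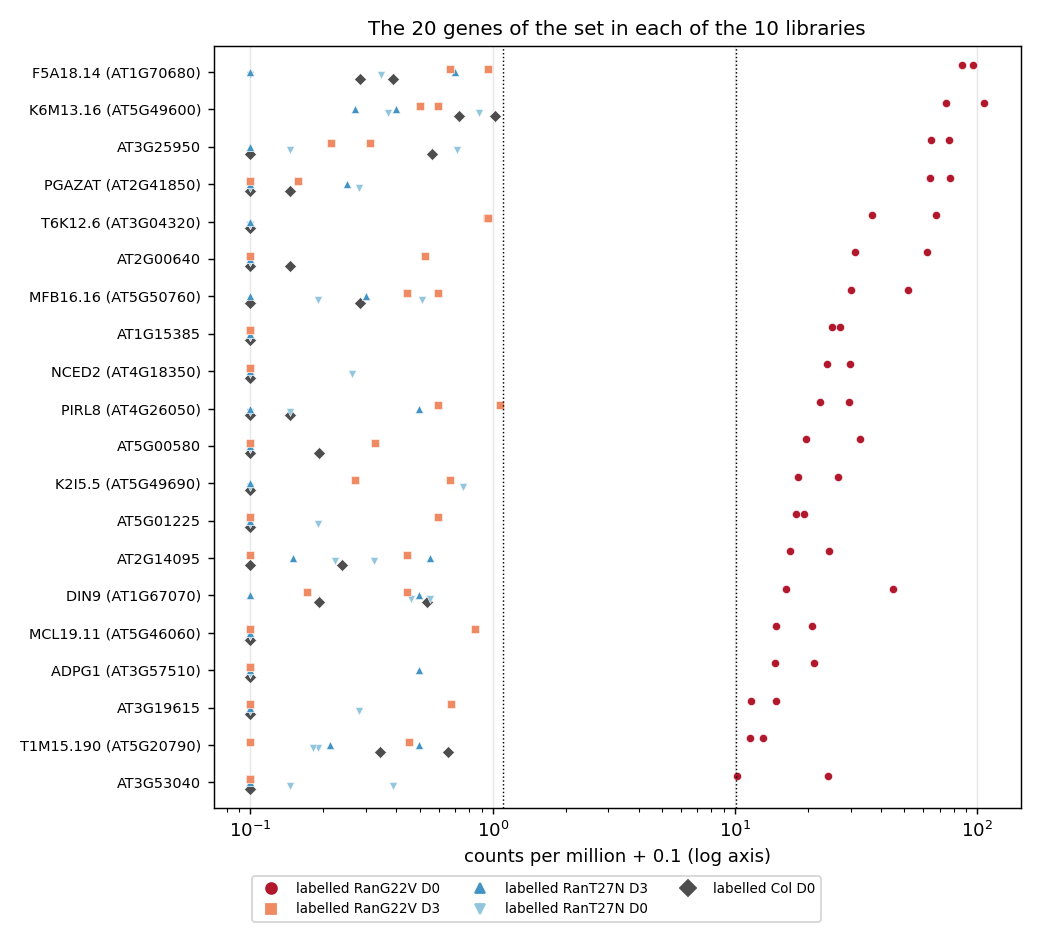
CPM plus 0.1 (log axis) of each of the 20 genes in the 10 libraries, 1 symbol per library, with groups named by label and dotted lines at the limits of 10 and 1 CPM. The red points of the RanG22V D0 pair lie at 10.1 CPM or above and all other points at 0.969 CPM or below, as the rule requires; symbols at the left edge are libraries with 0 counts.

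A pair of polygalacturonases known from abscission and dehiscence zones belonged to the set. PGAZAT (AT2G41850, also called ADPG2), a pectin-degrading enzyme of floral organ abscission and pod opening, had 77.2 and 63.6 CPM in the RanG22V D0 pair. In the other pairs its read counts were 0 and 1 (RanG22V D3), 0 and 3 (RanT27N D3), 4 and 0 (RanT27N D0) and 1 and 0 (Col D0). The ratio of the lower library of the pair to the highest other library was 354 for this gene, the largest of the 19 genes that had any read elsewhere. ADPG1 (AT3G57510), which acts with it in the opening of pods and anthers, had 21.03 and 14.5 CPM in the RanG22V D0 pair. Its only reads outside the pair were 8 in replicate 2 of the RanT27N D3 pair. Both genes were at or near 0 in the other leaves, with 9 and 8 reads over 8 libraries.

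The other genes of pectin breakdown and abscission were taken from a list. The gene lists used here and below were chosen with earlier results of these data known. Their counts and medians are thus a description and no independent support. Of 8 genes outside the set that could be tested against Col D0, 3 were higher, 1 was lower and 4 were not called, where 11.1% of all 21475 tested genes were higher and 12.1% lower. AtPME17, a pectin methylesterase, had 56.2 and 116 CPM in the RanG22V D0 pair against 0.460 and 1.21 CPM in the Col D0 pair (log2 fold change 6.36 ± 1.20, standard error, adjusted p = 0.00548). IDA, the peptide ligand that triggers floral abscission, had 32.3 and 12.0 CPM against 2.76 and 3.28 CPM (2.64 ± 0.81, adjusted p = 0.0418). HAE, the receptor of IDA, had 71.03 and 114 CPM against 29.2 and 28.3 CPM (1.39 ± 0.40, adjusted p = 0.0325). These receptor and ligand calls were thin. HAE lost its call without Col D0 replicate 1 or 2 (adjusted p = 0.0981 and 0.101) and without RanG22V D0 replicate 1 or 2 (adjusted p = 0.0649 and 0.175). IDA lost it without Col D0 replicate 1 or 2 (adjusted p = 0.144 and 0.115), RanG22V D0 replicate 1 (adjusted p = 0.285) and RanT27N D3 replicate 1 or 2 (adjusted p = 0.0526 and 0.0527). Only 1 of the 8 genes was called higher without Col D0 replicate 2 or without RanG22V D0 replicate 1. The median log2 fold change of the 8 genes was 2.00, against -0.00273 over all tested genes. Against the RanT27N D0 pair, 1 of the 8 was higher and 1 lower, with a median of 0.86, where 8.25% of all tested genes were higher. IDA had 16.23 and 3.96 CPM in the RanT27N D0 pair, values that overlap those of the RanG22V D0 pair (1.05 ± 0.76, adjusted p = 0.382). HAE had 39.3 and 68.3 CPM there (0.66 ± 0.39, adjusted p = 0.276). AtPME17, the gene called higher, had 9.80 and 5.27 CPM there (3.35 ± 1.01, adjusted p = 0.0488) and lost the call without either library of the RanT27N D0 pair (adjusted p = 0.122 and 0.188) or of the RanG22V D0 pair (adjusted p = 0.0945 and 0.177). QRT2, a polygalacturonase related to the pair above, stood at 3.11 and 3.02 CPM in the RanG22V D0 pair against 0.460 and 0 CPM in the Col D0 pair. It missed the threshold (adjusted p = 0.126), although it passed by DESeq2 (adjusted p = 0.0439) and without Col D0 replicate 1 (adjusted p = 0.0382). PME3, another pectin methylesterase, was lower, at 50.8 and 44.8 CPM against 549.3 and 503.1 CPM (-3.73 ± 0.52, adjusted p = 0.00136).

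NCED2 (AT4G18350), an enzyme of the committed step of abscisic acid synthesis, had 24.0 and 29.9 CPM in the RanG22V D0 pair. It had 4 reads in replicate 2 of the RanT27N D0 pair and 0 reads in each of the 7 remaining libraries. Other NCED genes differed from it in level. NCED3, the family member best known from drought, had 31.8 and 11.6 CPM in the RanG22V D0 pair, 6.20 and 9.46 CPM in the RanG22V D3 pair, 127 and 62.4 CPM in the RanT27N D3 pair, 55.6 and 22.9 CPM in the RanT27N D0 pair, and 88.3 and 39.6 CPM in the Col D0 pair. Its log2 fold change against Col D0 was -1.76 ± 0.65 (adjusted p = 0.0815), which did not pass, although it did by DESeq2 (adjusted p = 0.0299) and without a filter on low counts (adjusted p = 0.00543). Of the 4 other family members that could be tested, 0 were called by edgeR and 1 had an unadjusted p below 0.05.

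Further genes of abscisic acid synthesis and signalling were higher in part. Of 18 tested genes outside the set, 7 were higher and 0 lower against Col D0, and the median log2 fold change was 0.78. Of all tested genes 11.1% were higher and 12.1% lower. AAO3, the aldehyde oxidase of the last step of synthesis, had 52.9 and 65.4 CPM in the RanG22V D0 pair against 5.70 and 3.86 CPM in the Col D0 pair (3.35 ± 0.34, adjusted p = 0.000377). HAI1, a phosphatase induced by the hormone, had 349.1 and 411.4 CPM against 13.7 and 4.19 CPM (5.15 ± 0.93, adjusted p = 0.00454). In the RanG22V D3 pair AAO3 had 14.4 and 23.0 CPM and HAI1 129.5 and 283.2 CPM. The 22 listed genes outside the set summed to 756.4 and 1259 CPM in that pair. Their sums were 1239 and 1369 CPM in the RanG22V D0 pair and 420.0 and 362.7 CPM in the Col D0 pair. The count of 7 fell to 3 without Col D0 replicate 1, to 3 without RanG22V D0 replicate 1 and to 2 without RanG22V D0 replicate 2. Against the RanT27N D0 pair 5 of the 18 were higher and 0 lower, and 1 was higher without RanT27N D0 replicate 1 or without either RanG22V D0 library. Another aldehyde oxidase, AO4, just missed the set, with 21.6 and 49.6 CPM in the pair and at most 1.25 CPM elsewhere.

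AT2G14095, an uncharacterized protein in the annotation, was the member of the set on the list of developmental cell death. It had 24.4 and 16.8 CPM in the RanG22V D0 pair. Its reads elsewhere were 0 and 6 (RanG22V D3), 8 and 1 (RanT27N D3), 5 and 3 (RanT27N D0) and 3 and 0 (Col D0), so it was detected at a low level in every pair. Of the 12 other genes on that list, 8 were higher against Col D0, 2 were lower and 2 were not called. Their median log2 fold change was 3.65, and of all tested genes 11.1% were higher and 12.1% lower. AT4G18425, a DUF679 membrane protein, came closest to the set, with 87.1 and 64.2 CPM in the RanG22V D0 pair and 1.12 CPM in the highest of the other libraries. Against Col D0, where it had 0.138 and 0 CPM (3 and 0 reads), its log2 fold change was 9.71 ± 0.79 (adjusted p = 0.000192). With so few reads in the Col D0 pair the size of this change is poorly set. BFN1, a nuclease of senescing and dying cells, had 269.4 and 235.6 CPM in the RanG22V D0 pair, 2.82 and 2.57 CPM in the RanG22V D3 pair, 1.30 and 0.298 CPM in the RanT27N D3 pair, 0.989 and 0.204 CPM in the RanT27N D0 pair, and 0.276 and 0.482 CPM in the Col D0 pair. The RanG22V D0 pair stood above all other libraries and the RanG22V D3 pair above the 6 remaining ones, whose values overlapped. Its log2 fold change against Col D0 was 9.09 ± 0.89 (adjusted p = 0.00032).

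The proteases and nucleases of the list did not move as one. MC9, a metacaspase of dying xylem, had 62.9 and 32.8 CPM in the RanG22V D0 pair against 3.59 and 3.28 CPM in the Col D0 pair (3.56 ± 0.47, adjusted p = 0.00113). CEP1, a cysteine protease, had 9.55 and 11.7 CPM against 0.0460 and 0.145 CPM (6.44 ± 1.07, adjusted p = 0.00307). The Col D0 values of CEP1 are 1 and 3 reads, so the size of its fold change is poorly set. T26N6.7, an aspartyl protease, had 38.4 and 94.8 CPM against 8.37 and 10.6 CPM (2.49 ± 0.39, adjusted p = 0.00227). RNS3, a ribonuclease, had 22.4 and 6.93 CPM against 0.920 and 0.964 CPM and was higher (3.73 ± 1.02, adjusted p = 0.0275), a call lost without Col D0 replicate 1 or 2 (adjusted p = 0.0954 and 0.09) and without RanG22V D0 replicate 1 (adjusted p = 0.244). XCP2, a protease of differentiating xylem vessels, was lower, at 0.594 and 0.112 CPM against 8.09 and 7.96 CPM (-4.67 ± 0.91, adjusted p = 0.00622). CEP3, another cysteine protease, was lower too (-5.49 ± 1.57, adjusted p = 0.0328), at 0 and 0.112 CPM against 2.85 and 1.45 CPM, and lost its call without Col D0 replicate 1 (adjusted p = 0.0733) and without RanG22V D0 replicate 1 or 2 (adjusted p = 0.162 and 0.0803). SAG12, the senescence-specific cysteine protease, was high in a second pair as well, with 508.3 and 883.5 CPM in the RanG22V D0 pair and 148.5 and 525.97 CPM in the RanG22V D3 pair, against 1.06 and 0 CPM in the Col D0 pair. So the list held genes far higher in the RanG22V D0 pair than in any other, such as BFN1, beside genes on in both of these pairs. BFN1 itself did not meet the limits, as it passed 1 CPM in the RanG22V D3 pair and in replicate 1 of the RanT27N D3 pair.

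**Figure D2:**
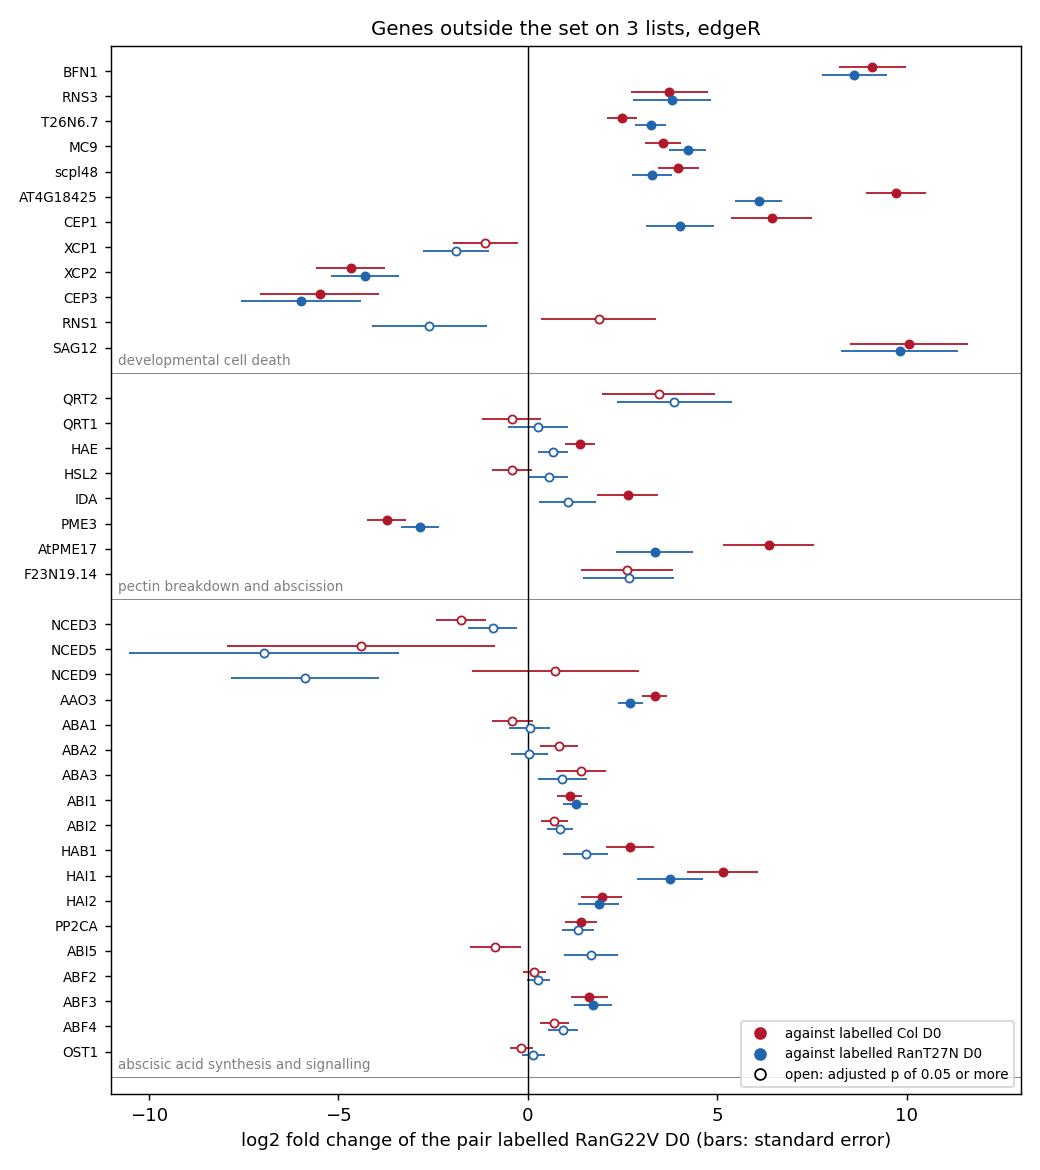
Log2 fold changes (edgeR, bars are standard errors) of the RanG22V D0 pair against the Col D0 pair (red) and the RanT27N D0 pair (blue), for tested genes outside the set on the lists of developmental cell death, pectin breakdown and abscission, and abscisic acid. NCED5 had 0 counts in the RanG22V D0 pair, so its fitted value is no bound. Filled points have an adjusted p below 0.05. Against Col D0, 8 of 12 cell death genes, 3 of 8 abscission genes and 7 of 18 abscisic acid genes were higher. Of all tested genes 11.1% were.

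DIN9 (AT1G67070) is a phosphomannose isomerase, named for its induction in the dark and known to be repressed by sugar. It had 44.7 and 16.1 CPM in the RanG22V D0 pair, the widest ratio between the 2 libraries of any member (2.77). Its reads elsewhere were 1 and 6 (RanG22V D3), 7 and 0 (RanT27N D3), 8 and 11 (RanT27N D0) and 2 and 9 (Col D0), a trace in 7 of 8 libraries. MEE31, the other phosphomannose isomerase of the annotation, went the other way, with 11.7 and 14.3 CPM in the RanG22V D0 pair against 57.5 and 27.2 CPM in the Col D0 pair (-1.97 ± 0.54, adjusted p = 0.0268). That call was lost without Col D0 replicate 1 (adjusted p = 0.112) and without RanG22V D0 replicate 1 or 2 (adjusted p = 0.136 and 0.125). Among genes of darkness and carbon starvation, 12 of 14 were higher against Col D0 and 0 lower. Of all tested genes 11.1% were higher and 12.1% lower. ASN1, the asparagine synthetase of starved leaves, had 1487 and 980.9 CPM in the RanG22V D0 pair and 11.6 and 51.1 CPM in the RanG22V D3 pair, against at most 1.24 CPM in the 6 other libraries. The 12 genes of the Calvin cycle, which mark green leaf cells, summed to 800.1 and 570.3 CPM in the RanG22V D0 pair and 1684 and 1198 CPM in the RanG22V D3 pair, against 5833 to 12427 CPM in the other 6 libraries, with none at 0. The part of this lower level in the results was not tested, and in bulk leaf RNA fewer cells of a type and less RNA per cell cannot be told apart.

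Several members belong to families of lipid and desiccation biology. F5A18.14 (AT1G70680), a caleosin, one of a family of calcium-binding proteins of lipid droplets, had 86.5 and 96.0 CPM in the RanG22V D0 pair. Its reads elsewhere were 8 and 15 (RanG22V D3), 0 and 12 (RanT27N D3), 0 and 6 (RanT27N D0) and 4 and 6 (Col D0). The other caleosins that could be tested were higher as well but were on in all libraries. RD20, the drought-induced caleosin of leaves, had 2285 and 2936 CPM in the RanG22V D0 pair against 273.9 and 43.3 CPM in the Col D0 pair (3.79 ± 0.88, adjusted p = 0.0136). CLO4, the neighbour of F5A18.14 on the chromosome, had 15.5 and 15.5 CPM against 2.62 and 3.18 CPM (2.13 ± 0.34, adjusted p = 0.00254). RD20 had 352.6 and 416.3 CPM in the RanG22V D3 pair and 507.4 and 137.2 CPM in the RanT27N D3 pair.

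AT3G53040, a late embryogenesis abundant (LEA) protein, a class that protects drying seeds, had 24.1 and 10.1 CPM in the RanG22V D0 pair. It had 1 and 7 reads in the RanT27N D0 pair and 0 in the 6 remaining libraries, and it lay nearest to the upper limit of the rule. Few other seed genes were called. Of 11 tested seed and LEA genes outside the set, 1 was higher against Col D0 and 0 lower by edgeR, and DESeq2 called 3 higher. LEA18 was the gene called, with 3.20 and 3.35 CPM in the RanG22V D0 pair against 0 in the Col D0 pair, which is at least 23.2-fold higher with 3 counts per library as the limit that a count of 0 allows (adjusted p = 0.0123). The call was lost without RanG22V D0 replicate 1 or 2 (adjusted p = 0.0599 and 0.0552). Marker genes of seed, pollen, flower and root were 17 in number, of which 8 could be tested. Against Col D0, 0 were called by edgeR, 3 had an unadjusted p below 0.05, and DESeq2 called 1 higher and 1 lower. They summed to 35.6 and 45.8 CPM in the RanG22V D0 pair against 15.1 to 54.4 CPM in the other libraries. The seed storage genes CRA1 and SESA1 were at 0 in the RanG22V D0 pair. AT3G25950, a TLC-domain protein (the lipid-sensing domain of ceramide synthases), had 76.2 and 64.6 CPM in the RanG22V D0 pair, and its reads elsewhere were 3 and 2 (RanG22V D3), 0 and 0 (RanT27N D3), 1 and 15 (RanT27N D0) and 10 and 0 (Col D0). Genes of fatty acid breakdown and the glyoxylate cycle were higher in 12 of 15 cases against Col D0. Of all tested genes 11.1% were higher and 12.1% lower. ACX4, an acyl-CoA oxidase among the 12, had 805.9 and 1023 CPM in the RanG22V D0 pair and 223.4 and 208.4 CPM in the RanG22V D3 pair. In the Col D0 pair it had 52.7 and 62.4 CPM (3.70 ± 0.33 for RanG22V D0 against Col D0, adjusted p = 0.000224). Genes of suberin and cutin, the lipid polymers of plant surfaces, were lower in 5 of 9 tested cases (3 without RanG22V D0 replicate 1 or 2), and of 10 genes of phosphate starvation 1 was higher and 1 lower.

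T6K12.6 (AT3G04320), a Kunitz-type protease inhibitor, had 67.3 and 36.6 CPM in the RanG22V D0 pair. Outside it, reads were found only in the RanG22V D3 pair, 12 and 15, which is 0.846 and 0.855 CPM, and the 6 other libraries had 0. The relatives of T6K12.6 differed among themselves. F2H15.9, another Kunitz inhibitor, had 22.6 and 30.5 CPM in the RanG22V D0 pair against 4.60 and 4.29 CPM in the Col D0 pair (2.29 ± 0.33, adjusted p = 0.00172), and was higher. AT1G73325, the other tested relative, had 0 counts in the RanG22V D0 and RanG22V D3 pairs, against 33.5 and 4.78 CPM in the RanT27N D3 pair, 18.08 and 9.27 CPM in the RanT27N D0 pair, and 34.7 and 2.03 CPM in the Col D0 pair. It was lower against Col D0 (adjusted p = 0.0145), a call lost without RanG22V D0 replicate 1 or 2 (adjusted p = 0.066 and 0.0648). T6K12.5, the next gene on the chromosome and of the same family, had 0 counts in every library.

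MFB16.16 (AT5G50760), SAUR55 in the annotation and so one of the small auxin-upregulated genes, had 51.7 and 30.1 CPM in the RanG22V D0 pair. Its reads elsewhere were 7 and 6 (RanG22V D3), 0 and 4 (RanT27N D3), 2 and 10 (RanT27N D0) and 4 and 0 (Col D0). Of 43 other tested SAUR genes, 5 were higher and 7 lower against Col D0, where 11.1% and 12.1% of all tested genes were. SAUR36, a SAUR gene known from leaf senescence, was among the higher ones, with 81.95 and 140.2 CPM in the RanG22V D0 pair and 43.2 and 34.6 CPM in the RanG22V D3 pair, against 0.414 and 0.386 CPM in the Col D0 pair (7.79 ± 0.72, adjusted p = 0.000266). PIRL8 (AT4G26050), a leucine-rich-repeat protein of a plant family related to Ras-binding proteins of animals, had 29.3 and 22.3 CPM in the RanG22V D0 pair. It came closest of all members to the lower limit, with 7 and 17 reads in the RanG22V D3 pair, the higher of them 0.969 CPM. It had 0 and 8 reads in the RanT27N D3 pair, 1 and 0 in the RanT27N D0 pair and 1 and 0 in the Col D0 pair. Of the 8 other PIRL genes only PIRL9 was called, at 108.05 and 110.3 CPM in the RanG22V D0 pair against 26.5 and 18.13 CPM in the Col D0 pair (2.02 ± 0.49, adjusted p = 0.016), and it lost the call without Col D0 replicate 2 (adjusted p = 0.0839) and without RanG22V D0 replicate 1 or 2 (adjusted p = 0.0697 and 0.0527).

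AT1G15385, annotated as a cotton fiber protein, was the 1 gene with no read in any of the 8 other libraries. It had 26.97 and 25.2 CPM in the RanG22V D0 pair (590 and 450 reads), so the lower library was at least 119-fold above the others with 3 counts per library as the limit that 0 counts allow. Such limits cover counting error only. Its neighbour GLYI4, a glyoxalase family gene, had 3631 and 2958 CPM in the RanG22V D0 pair, 89.5 and 98.98 CPM in the RanG22V D3 pair, 0.226 and 1.04 CPM in the RanT27N D3 pair, 0 and 0.0408 CPM in the RanT27N D0 pair, and 1.747 and 1.35 CPM in the Col D0 pair. GLYI4 did not meet the limits, as it passed 1 CPM in the RanG22V D3 pair, the Col D0 pair and replicate 2 of the RanT27N D3 pair. It was still far higher in the RanG22V D0 pair (10.79 ± 0.84 on the log2 scale against Col D0, adjusted p = 0.000192).

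The remaining members have no settled role. K6M13.16 (AT5G49600), a DUF538 protein, had 106.4 and 74.5 CPM in the RanG22V D0 pair and was the 1 member with reads in every library, 7 and 7 (RanG22V D3), 3 and 6 (RanT27N D3), 6 and 19 (RanT27N D0) and 20 and 13 (Col D0). Of 20 other tested DUF538 genes, 3 were higher and 4 lower against Col D0, where 11.1% and 12.1% of all tested genes were. MCL19.11 (AT5G46060), a DUF599 protein, had 20.8 and 14.6 CPM in the RanG22V D0 pair, and its only reads elsewhere were 13 in replicate 2 of the RanG22V D3 pair. K2I5.5 (AT5G49690) is a glycosyltransferase of the family that the rule left out by name, and it stayed because its row carries a clone name. It had 26.6 and 18.2 CPM in the RanG22V D0 pair and at most 0.653 CPM elsewhere. AT5G01225, a josephin-like protein, had 19.2 and 17.8 CPM in the RanG22V D0 pair, and 9 reads over the 8 other libraries. AT3G19615, whose product the annotation calls a beta-1,4-xylosidase, had 14.7 and 11.5 CPM in the pair and 14 reads elsewhere. T1M15.190 (AT5G20790), an uncharacterized protein, had 11.4 and 12.97 CPM in the pair and 36 reads elsewhere, 17 of them in the Col D0 pair.

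Both noncoding members, AT2G00640 and AT5G00580, are transcribed regions with no assigned function. AT2G00640 had 31.2 and 61.9 CPM in the RanG22V D0 pair, with 6 and 0 reads in the RanG22V D3 pair, 1 and 0 in the Col D0 pair and 0 in the 4 RanT27N libraries. AT5G00580 had 19.6 and 32.7 CPM in the RanG22V D0 pair, with 0 and 4 reads in the RanG22V D3 pair, 2 and 0 in the Col D0 pair and 0 in the 4 RanT27N libraries. They were the 2 members with the lowest ratio of replicate 1 to replicate 2, 0.504 and 0.600.

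Of the 20 genes, 5 overlap another row on the TAIR10.1 annotation, a share of 25% against 30.7% of all paired rows. The strand setting of the counting is not given in the sources used here, so reads of these genes and their partners cannot be told apart. AT2G00640 overlaps CKX2, a cytokinin-degrading oxidase on the opposite strand, which had 37.8 and 55.5 CPM in the RanG22V D0 pair against 0.920 and 1.11 CPM in the Col D0 pair (5.22 ± 0.44, adjusted p = 0.000196). K6M13.16 overlaps K6M13.17, an F-box gene on the opposite strand with 41.4 and 23.5 CPM against 2.44 and 1.35 CPM (3.86 ± 0.58, adjusted p = 0.00193). AT2G07225 and AT2G07235, noncoding rows that overlap AT2G00640 too, had 74 and 84 reads and 37 and 44 reads in the RanG22V D0 pair, against 0 in the 8 other libraries. AT5G01225 overlaps F7J8.210 on the opposite strand, with 20.2 and 21.7 CPM against 2.58 and 5.06 CPM (2.16 ± 0.42, adjusted p = 0.00638). CKX2, K6M13.17 and F7J8.210 moved in the same direction as the members but were read in every library. K2I5.5 overlaps AT5G00615 on the same strand, with 58.1 and 45.6 CPM in the RanG22V D0 pair against 0.644 and 0 CPM in the Col D0 pair (7.05 ± 1.40, adjusted p = 0.00691). AT3G19615 overlaps AT3G19613, which had 14.99 and 11.6 CPM in the RanG22V D0 pair and 3.36 and 1.35 CPM in the Col D0 pair. It missed the threshold (adjusted p = 0.0739), although it passed by DESeq2 (adjusted p = 0.0258), without a filter on low counts (adjusted p = 0.0156) and without RanT27N D3 replicate 1 (adjusted p = 0.0488). In the RanG22V D0 pair AT3G19613 had 328 and 207 reads, nearly those of AT3G19615 (322 and 206). In the RanT27N D3 pair AT3G19613 had 31 and 154 reads and AT3G19615 had 0 and 0. AT3G19620, the next gene, had 31 and 147 there. The level and adjusted p of AT3G19613 may thus not be separate from those of AT3G19615. The values of the members at these 5 sites may hold reads of a partner, and whether rows share reads was not tested.

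**Figure D3:**
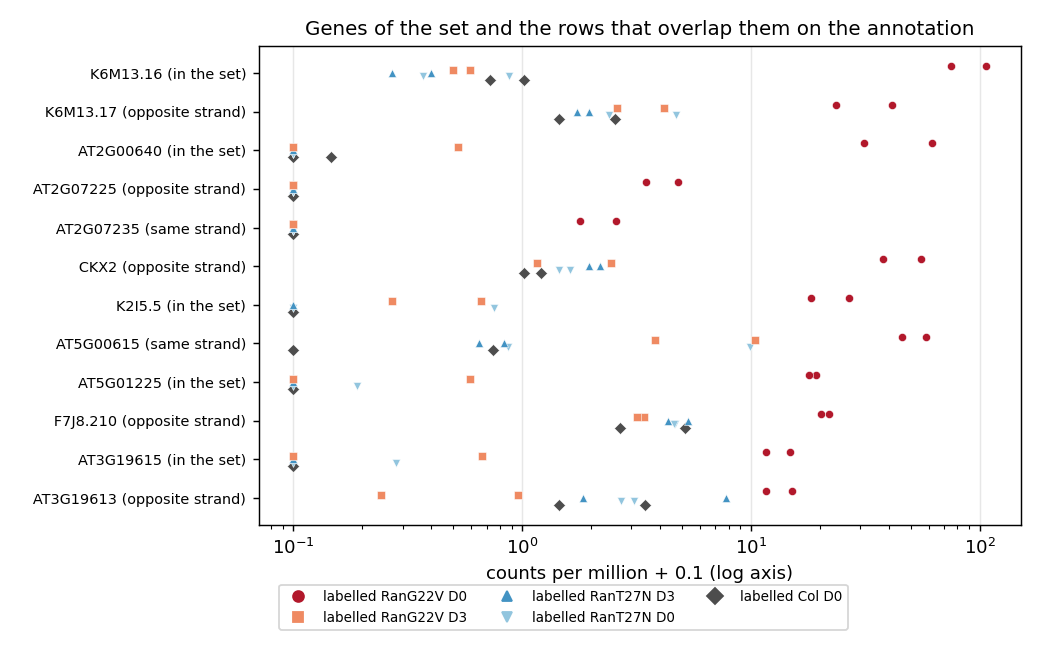
CPM plus 0.1 (log axis) in the 10 libraries for the 5 genes of the set that overlap another row and for the 7 overlapping rows, with the strand relative to the gene of the set. K6M13.17, CKX2, AT5G00615, F7J8.210 and AT3G19613 have reads in most or all libraries, where the genes of the set are at 0.920 CPM or below outside the RanG22V D0 pair.

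The genes next to the members were compared with Col D0 and then across the other pairs. Of 25 tested neighbours that do not overlap a member, 8 were higher against Col D0 and 0 lower, or 32% where 11.1% of all tested genes were higher. SIP2, a raffinose-related enzyme of sugar metabolism next to ADPG1, had 4183 and 3338 CPM in the RanG22V D0 pair against 145.2 and 57.04 CPM in the Col D0 pair (4.97 ± 0.64, adjusted p = 0.00104). GOX3, a glycolate oxidase family gene next to NCED2, had 27.2 and 48.5 CPM against 0.920 and 1.25 CPM (4.80 ± 0.45, adjusted p = 0.000277). AHL17, an AT-hook DNA-binding protein next to K2I5.5, had 76.2 and 62.5 CPM against 1.20 and 0 CPM (6.60 ± 1.45, adjusted p = 0.0108). PTR3, a peptide transporter next to MCL19.11, had 76.1 and 205.2 CPM against 9.24 and 10.9 CPM (3.47 ± 0.51, adjusted p = 0.00182). MYB78, a transcription factor next to K6M13.16, had 9.37 and 13.9 CPM against 0.0460 and 0.0482 CPM (7.49 ± 1.35, adjusted p = 0.00441). Its Col D0 values are 1 read each, so the size of this fold change is poorly set. HWI1, next to F5A18.14, was called as well (adjusted p = 0.0106) but not without RanG22V D0 replicate 2 (adjusted p = 0.0523). Several of these neighbours were also on in other pairs. PTR3 had 63.9 and 66.0 CPM in the RanT27N D0 pair, against which it was not called in the RanG22V D0 pair (0.96 ± 0.47, adjusted p = 0.192). GOX3 had 15.01 and 23.4 CPM and HWI1 25.5 and 31.4 CPM in the RanG22V D3 pair. AHL17 had 13.8 and 5.30 CPM in the RanG22V D3 pair and 0.899 and 12.2 CPM in the RanT27N D0 pair. MYB78 had 1.83 and 2.96 CPM in the RanG22V D3 pair, and SIP2 had 54.1 CPM or more in every library. None of these 6 genes met the limits of the set. The neighbours were not compared with a matched set, and no test of the difference between 32% and 11.1% was made.

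Within the RanG22V D0 pair the members leaned to replicate 1. Of the 20 genes, 15 had more CPM in replicate 1 than in replicate 2, with a median ratio of 1.30 and a range of 0.504 to 2.77. Of the 8898 rows at 10 CPM or more in both libraries, 29.1% did, with a median ratio of 0.874. With library sizes scaled by TMM, 17 of the 20 members were higher in replicate 1 (median ratio 1.51), against 53.5% of the rows (median ratio 1.02). The widest ratios were those of DIN9 and of AT3G53040, at 2.77 and 2.40, so a mean over the pair says least for these genes. Ribosomal RNA shares differed between the 2 libraries, 16.8% in replicate 1 and 8.19% in replicate 2. Its part in the lean of the members was not tested. A change of totals, by TMM or otherwise, multiplies the ratio of every row by the same factor. The scalings thus repeat 1 comparison of members with rows. With ribosomal and organelle rows left out of the totals, 16 of the 20 members were higher in replicate 1 and the median ratio was 1.44, against 0.971 over the rows.

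**Figure D4:**
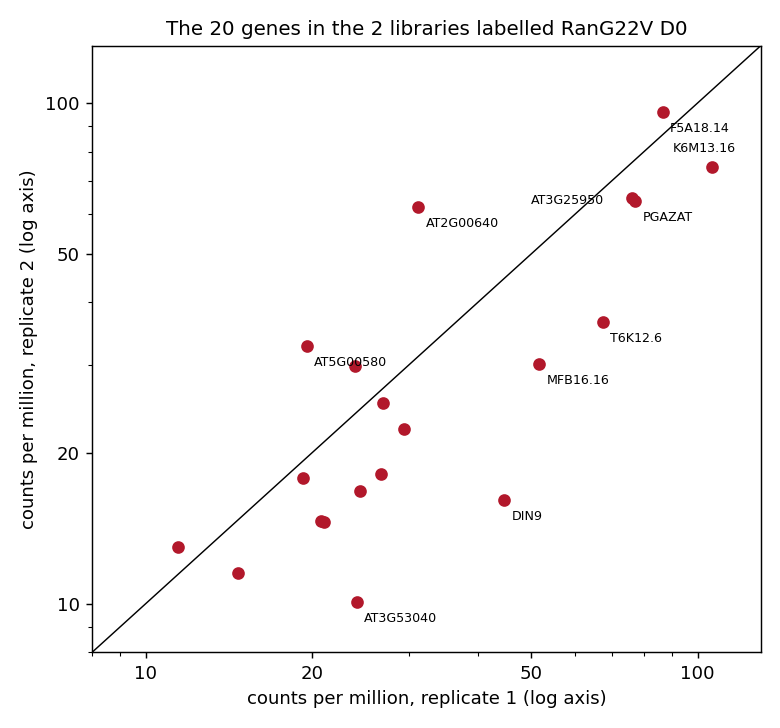
CPM of the 20 genes in replicate 1 (x axis) and replicate 2 (y axis) of the RanG22V D0 pair, both on log axes, with the line of equal values; the genes farthest from the line and those over 60 CPM are named. Below the line lie 15 genes, and AT2G00640 and AT5G00580 lie farthest above it.

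The traces in the other libraries are values that the rule capped at 1 CPM, so their spread over the pairs is a description only. In the RanG22V D3 pair 11 and 13 of the 20 genes had at least 1 read, against 4 and 8 in the RanT27N D3 pair, 11 and 10 in the RanT27N D0 pair, and 11 and 4 in the Col D0 pair. Both libraries of a pair held reads for 8 members in the RanG22V D3 pair, 3 in the RanT27N D3 pair, 7 in the RanT27N D0 pair and 4 in the Col D0 pair. The highest value outside the RanG22V D0 pair fell in the RanG22V D3 pair for 9 of the 19 members with any read. Detection within a pair also differed between its libraries, most in the Col D0 pair. With 0 to 20 reads per gene and library, counting error is large for these levels. Depth differed too, as 1 read was 0.0705 CPM in RanG22V D3 replicate 1 and 0.0408 CPM in RanT27N D0 replicate 2. These counts were not set beside the same share over all rows, so no difference between pairs is read from them.

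**Figure D5:**
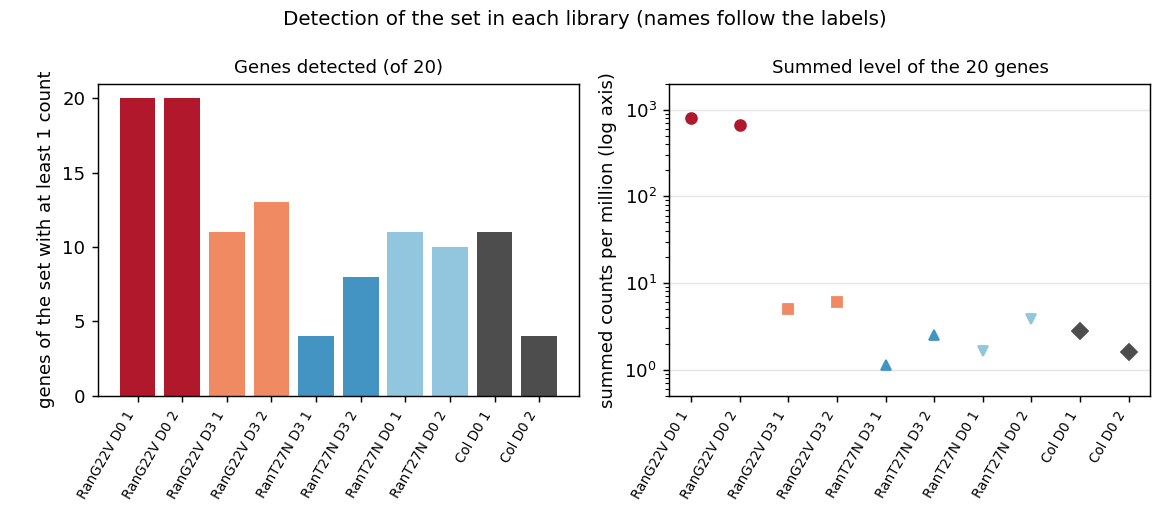
Number of the 20 genes with at least 1 count (left, bars from 0) and summed CPM of the 20 genes (right, log axis) in each library, with groups named by label. All 20 genes are detected in the RanG22V D0 pair and 4 to 13 in the other libraries, whose sums lie between 1.13 and 5.99 CPM, against 803.4 and 669.9 CPM.

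All 20 genes passed the filter on low counts, which they could do through the RanG22V D0 pair alone. In the contrasts that used this pair, the calls follow from the rule and are given for completeness. DESeq2 called 14 of 20 members against Col D0, 13 against RanT27N D0 and 12 in RanG22V D3 against RanG22V D0. Over all genes it called 6421, 5286 and 2472. The edgeR counts were larger for the members. Against Col D0, 20 of 20 were higher, where 11.1% of all tested genes were. Against RanT27N D0, 20 of 20 were higher, where 8.25% were. In the RanG22V D3 pair against the RanG22V D0 pair, 18 of 20 were lower, where 2.77% were. The contrasts share libraries, and the last of these counts depended on each library compared: it was 2 and 1 without RanG22V D3 replicate 1 and 2, and 5 and 9 without RanG22V D0 replicate 1 and 2. The contrasts without the pair are limited by the cap of 1 CPM. In the RanT27N D0 pair against the Col D0 pair, 0 of 20 were called by edgeR and 0 by DESeq2, with 2 at an unadjusted p below 0.05, where 0.247% of all genes were called. In the RanT27N D3 pair against the RanT27N D0 pair, 0 were called by either tool, with 2 at an unadjusted p below 0.05, where 0.345% were. In the RanG22V D3 pair against the RanT27N D3 pair, 1 of 20 was called by edgeR, where 10.8% of all genes were called and 3.9% were higher. That member was T6K12.6, with 12 and 15 reads against 0 and 0, and since the rule capped these values the call is read as no result.

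The limits of the rule cut through a range of values. Just inside the upper limit, AT3G53040, T1M15.190 and AT3G19615 had 10.1, 11.4 and 11.5 CPM in the lower library of the RanG22V D0 pair. Just outside it, T8A17.4, a RING-type protein, LAC5, a laccase, and AT3G58450 had 9.62, 9.37 and 9.28 CPM. Just inside the lower limit, PIRL8, K6M13.16 and F5A18.14 reached 0.969, 0.920 and 0.855 CPM in the highest other library. Just outside it, AT4G18425, AO4 and MAP18, a microtubule-associated protein, reached 1.12, 1.25 and 1.31 CPM.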

How the data were processed

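The authors deposited a file of raw gene counts for each library, made from Lexogen QuantSeq libraries per the labels. The submitters' processing notes name Bowtie2, edgeR and TAIR10. Their versions, the counting program and its use of strand were not given in the sources used here. Rows carry gene names; 32576 of 33028 (98.6%) were paired with a locus of the TAIR10.1 reference, so no coordinates or sequences are given. CPM used the plain library total (14187505 to 24496672). Tests used edgeR 4.0.16 (R 4.3.3): filterByExpr left 21475 genes, TMM scaling, 1 model of 5 group means over 10 libraries, the quasi-likelihood test, Benjamini-Hochberg adjustment, calls at an adjusted p below 0.05, and standard errors from the fold change and the test statistic. DESeq2 1.42.0 was an alternative. The fit was also run on simulated counts, with the same spread for all genes and changes only in genes with many reads. Genes at few or no reads in a group were thus not covered. Reads carry no molecular identifiers in these files.

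The members, the 10 gene lists and the families were chosen with earlier results of these data known; the families were picked after the members' annotation was seen. Named are all members, the genes nearest each limit, and list, family, overlapping and neighbouring genes; the examples among these last were chosen after their values were seen. Replicate numbers come from the sample titles. A planned search of promoters for motifs was not made.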

Additional observations from a re-analysis of the deposited data

How the results depend on the processing

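Group size (2 libraries) and the traces of 0 to 20 reads outside the RanG22V D0 pair limit what can be told of the set. The set held 20 genes; it held 43 with a limit of at least 5 CPM in the pair and 34 with at most 2 CPM elsewhere, which contain all 20, and 10 with at least 20 CPM and 11 with at most 0.5 CPM, all of them among the 20. TMM-scaled sizes gave 18 genes (18 shared), totals without ribosomal and organelle rows 18 (16 shared), and leaving out 1 library 20 to 28 (20 shared). A looser limit or 1 library fewer can only add genes, and a stricter limit can only remove them. The overlaps with the 20 genes under those changes were thus fixed in advance and say nothing of how stable the set is.

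Calls over all genes moved with the tool, the filter and the libraries. With DESeq2, without a filter and with only the 4 libraries compared, the counts were 2472, 2107 and 3607 for RanG22V D3 against RanG22V D0 (846 in the report's fit), 383, 391 and 0 for RanT27N D0 against Col D0 (53), and 549, 563 and 0 for RanT27N D3 against RanT27N D0 (74); for RanG22V D3 against RanT27N D3 (2324), DESeq2 gave 4053 and no filter 3709. Leaving out 1 library gave 2384 to 4899 for RanG22V D0 against Col D0 (4980), 1641 to 4658 for RanG22V D0 against RanT27N D0 (3782), 27 to 1464, 0 to 46, 0 to 180 and 486 to 3191 for the contrasts in the order above. Members called were 13 by DESeq2 for RanG22V D0 against RanT27N D0, and for RanG22V D3 against RanT27N D3 they were 3 without a filter and 0 with only the 4 libraries. Leaving out 1 library gave 18 to 20, 15 to 20, 1 to 20, 0 to 0, 0 to 0 and 0 to 1 members in the 6 contrasts, RanG22V D0 against Col D0 and against RanT27N D0 first. XCP1, not called at -1.12 on the log2 scale against Col D0, lay between -1.90 and 0.31 with 1 library left out, the positive value without Col D0 replicate 1. The phosphate starvation gene called lower against Col D0 was lost without 8 of the 10 libraries in turn, and 3 genes of that list were higher without Col D0 replicate 1. The cause of these shifts was not tested.

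No source says that replicate numbers pair libraries across groups, and deviations of same-numbered libraries correlated at -0.0076 to 0.31. With the replicate number as a block the counts were 5213, 4146, 1072, 56, 72 and 2794, with 20, 20, 17, 0, 0 and 1 members called. IDA lost its call under the block (adjusted p = 0.0548) and NCED3 gained one (adjusted p = 0.0188).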
